A study of Mus musculus with 11 samples.

Results

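The 39 interferon-stimulated genes described here are a list of gene symbols, drawn up by name with earlier results of these data known. All 39 were among the 32469 gene symbols of the deposited count table, and all 39 had at least 1 read. They were sorted by role into 16 antiviral effectors, 4 interferon-regulated transcription factors, 3 sensors of nucleic acids, 7 interferon-inducible GTPases, 6 regulators and ubiquitin or ADP-ribose enzymes, and 3 Schlafen genes. The genes were measured by bulk RNA-seq in CD8+ T cells that had infiltrated tumors of Lewis lung carcinoma (LLC), a lung carcinoma line that grows in C57BL/6 mice. All mice were 8-week-old female wild-type C57BL/6 mice with an LLC tumor under the skin of each flank. The 5 untreated mice received no antibody, and the 6 anti-LAG-3 mice received 200 µg of clone C9B7W, which blocks the inhibitory receptor LAG-3, on day 14 and again on day 16. For tumor excision the labels name days 14 and 21, whereas both the study's methods and the legend to this experiment name day 18 for the later tumor. Precursor exhausted cells, which can renew themselves and give rise to the terminally exhausted cells of a tumor, were sorted as CD8+PD-1+Ly108+TIM-3-CD62L- cells, and a library was made from each mouse.

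Interferons are cytokines that bind receptors of the JAK-STAT type. Type I interferons act through a complex with STAT2 and IRF9 that binds the interferon-stimulated response element (ISRE), and interferon-γ acts through factors that bind the gamma-activated sequence (GAS). The genes that they switch on block viral entry, translation, replication and release, and in tumors they are read as a trace of interferon that reached a cell, whether or not the cell made it.

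Promoter sequences are shown because the ISRE and the GAS define how these genes are switched on. RefSeq promoters of the mouse build GRCm38.p6, 250 bases before to 50 bases after a gene's start, were at hand for 32 of the 39 genes, without Mx1, Usp18, Parp14, Zbp1, Ifi27l2a, Parp9 and Rtp4. The ISRE core, searched on both strands as GAAA, any 2 bases and GAAA, was found in 18 of the 32 promoters (56.2%), against 943 of 27025 promoters of all genes (3.49%). The GAS core, searched as TTCNNNGAA, which reads the same on both strands, was found in 10 promoters (31.2%), against 8.47% of all promoters. Both cores were found in 5 promoters (15.6%, against 0.514%), and at least 1 of the cores in 23 (71.9%, against 11.4%). These matches are letters in a window and no measure of binding.

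The promoter stretches of the genes described most fully in the next paragraphs are printed 5′ to 3′ on the strand of the gene, with the cores in capitals. Bst2 lies on the minus strand, with the stretch at chr8:71537567-71537628, and its GAS core overlaps an ISRE core that in turn overlaps another. Gbp7 (plus strand, chr3:142530210-142530312) has a pair of GAS cores and an ISRE core. Gbp2 (plus strand, chr3:142620584-142620633), Trim30a (minus strand, chr7:104465200-104465249) and Slfn5 (plus strand, chr11:82951927-82951976) have an ISRE core, and Irf1 (plus strand, chr11:53769904-53769952) has a GAS core only.
Bst2: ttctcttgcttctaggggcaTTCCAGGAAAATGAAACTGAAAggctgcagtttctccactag
Gbp7: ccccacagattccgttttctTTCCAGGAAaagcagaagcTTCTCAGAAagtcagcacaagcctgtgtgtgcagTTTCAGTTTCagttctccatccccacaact
Gbp2: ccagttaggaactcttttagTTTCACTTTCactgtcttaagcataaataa
Trim30a: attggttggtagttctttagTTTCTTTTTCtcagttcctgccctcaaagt
Slfn5: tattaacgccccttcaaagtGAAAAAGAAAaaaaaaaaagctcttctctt
Irf1: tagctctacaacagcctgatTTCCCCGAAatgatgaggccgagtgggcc

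Another 4 stretches are shown as examples of the layout of cores in this family. Isg15 (minus strand, chr4:156200855-156200916) has 3 ISRE cores that run into each other. Ifit1 (plus strand, chr19:34640765-34640833) has a pair of separate ISRE cores. Igtp (plus strand, chr11:58199491-58199551) and Irgm2 (plus strand, chr11:58214882-58214942) overlap in the annotation, and their printed stretches, each with a GAS core just before an ISRE core, are identical at 59 of 61 bases.
Isg15: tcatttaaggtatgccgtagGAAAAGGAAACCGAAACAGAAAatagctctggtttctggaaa
Ifit1: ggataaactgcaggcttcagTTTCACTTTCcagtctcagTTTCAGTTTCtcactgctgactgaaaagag
Igtp: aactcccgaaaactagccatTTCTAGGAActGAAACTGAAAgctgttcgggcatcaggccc
Irgm2: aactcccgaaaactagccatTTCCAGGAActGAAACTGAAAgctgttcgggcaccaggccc

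**Figure D1:**
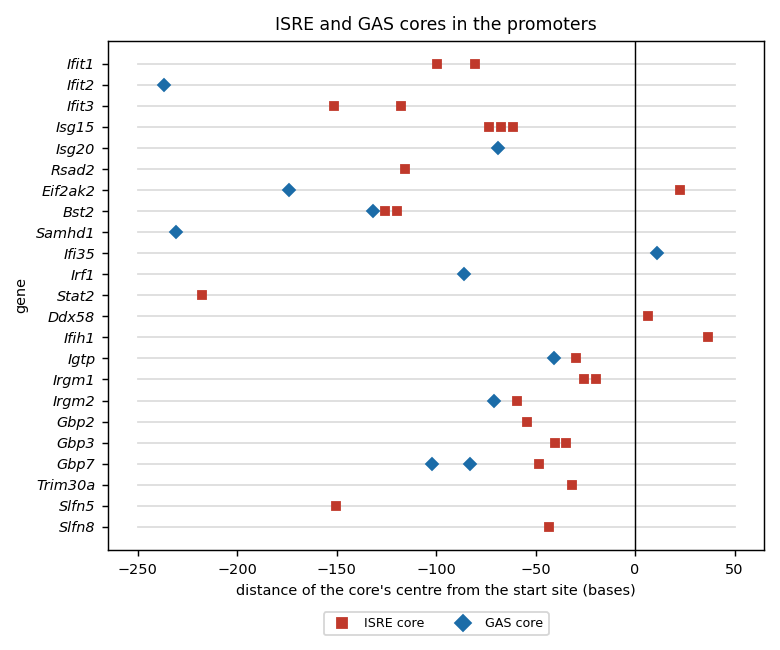
Position of the ISRE cores (red squares) and GAS cores (blue diamonds) in the promoters of the 23 genes that hold at least 1 core. The horizontal axis gives the distance of the core's centre from the start site in bases, each gray line is the 300-base window of a gene, and most cores lie within the 150 bases before the start site.

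Libraries held between 313524 and 1901374 counts, so that 3 counts, taken as the floor of detection, correspond to between 1.58 and 9.57 CPM (counts scaled to a common library depth), a limit that covers counting error only since PCR copies of a molecule cannot be told from separate molecules. Depth followed the primer barcode in the library names. The 6 libraries with primer barcode 9, which came from 3 untreated and 3 anti-LAG-3 mice, held 566144 counts or more, whereas the 4 libraries with primer barcode 8, from 1 untreated and 3 anti-LAG-3 mice, and the 1 untreated library with primer barcode 10 held 451465 or fewer. A second number in the names, the index, was the same in untreated mice 4 and 5, and the same in untreated mice 2 and 3 and anti-LAG-3 mouse 10, while each of the other 6 libraries had an index of its own. The 39 genes took between 0.267% and 0.428% of a library's counts. The 6 CD8 T cell markers summed to between 4846 and 5388 CPM of total counts in every library, whereas Havcr2, which encodes the TIM-3 of the gate, had 34 reads in all 11 libraries together. Of the 3 markers listed for CD4 and regulatory T cells, Cd4 and Foxp3 had 4 and 2 reads and Cd40lg had 59. In these bulk samples, fewer cells that express a gene and less RNA per cell cannot be told apart.

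No gene of the list passed the test between anti-LAG-3 and untreated mice. Of the 39 genes, 36 passed the filter on low counts, and 0 of the 36 had an adjusted p under 0.05 in the quasi-likelihood test of edgeR, adjusted by the Benjamini-Hochberg method over all 6949 genes tested, of which 0 passed (0%). At an unadjusted p under 0.05 there were 2 of the 36, Gbp7 and Ifi27l2a, against 258 of the 6949 genes (3.71%). Both lay below 0, as did 139 of the 258 (2% of all genes tested), and none lay above 0, as did 119 (1.71%). The same count of the 36 was 3 with DESeq2, 3 with edgeR's likelihood ratio test and 1 with limma-voom, against 2.35%, 4.42% and 4.56% of all genes tested. The log2 fold change, anti-LAG-3 over untreated, lay below 0 for 27 of the 36 genes and above 0 for 9, whereas 48.9% of all genes tested lay below 0. The median log2 fold change of the 36 genes was -0.09, against 0.00 over all genes tested. The single values lay between -0.44 for Eif2ak2 and 0.16 for Irgm1, and the 95% intervals of all 36 lay between -0.90 and 0.63, within a 2-fold change in either direction. In no gene of the 36 were the CPM of all mice of a group above those of the other group, which was so for 33 of the 6949 genes (0.475%).

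The count of genes below 0 depended on the libraries taken. In a fit of the 6 libraries with primer barcode 9 alone, 16 of 37 genes lay below 0 and 21 above, the median log2 fold change was 0.02, and 0 of the 37 had an unadjusted p under 0.05, against 4.69% of all genes tested. With the primer barcode as a term in the fit of all libraries, 27 of 36 lay below 0 with a median of -0.08. Without untreated mouse 4, which had primer barcode 8, 22 of 37 genes lay below 0, the median was -0.04, and the count at an unadjusted p under 0.05 was 0. Without anti-LAG-3 mouse 9, 31 of 35 genes lay below 0 and the median was -0.19. Over the 11 fits that leave out a library, the count at an unadjusted p under 0.05 ran from 0 of 37 without untreated mouse 4 (3.43% of all genes tested) to 5 of 35 without untreated mouse 3 (3.61% of all genes tested).

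**Figure D2:**
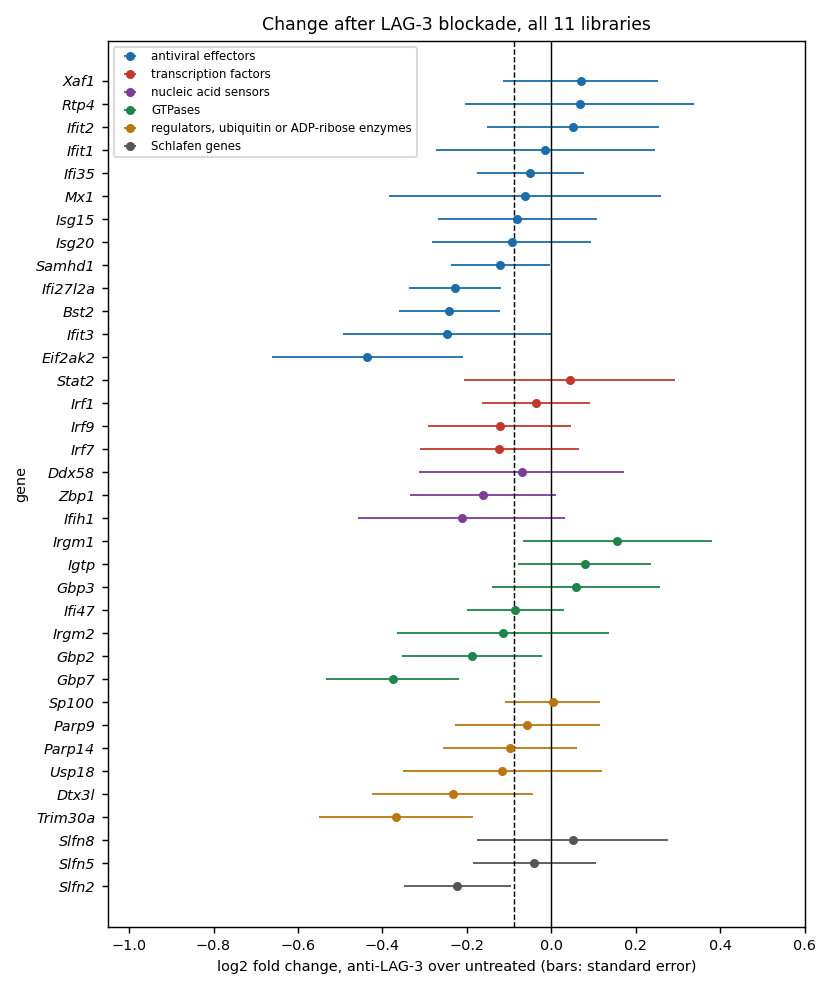
Log2 fold change, anti-LAG-3 over untreated, of the 36 interferon-stimulated genes tested (points, colored by role) with its standard error (bars), from 5 untreated and 6 anti-LAG-3 mice. The dashed line is the median of the 36 genes, -0.09, and 27 points lie left of the solid line at 0.

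Antiviral effectors are the proteins that act on a virus or an infected cell. Of the 16 listed, 13 were tested, 10 had a log2 fold change below 0 and 3 above 0, with a median of -0.08. Ifi27l2a, a small interferon-induced protein of the ISG12 family (chromosome 12, 103442167 to 103443680 of GRCm38), had 610.0, 601, 632, 873 and 859.6 CPM in untreated mice 1 to 5, and between 512 and 743 CPM, median 603, in the 6 anti-LAG-3 mice. Untreated mice 4 and 5 stood above all 6 anti-LAG-3 mice, and the other 3 untreated mice lay within their range. Its log2 fold change was -0.23 ± 0.11 (standard error), with an unadjusted p of 0.0456 and an adjusted p of 1.0 (edgeR). Without untreated mouse 4 or 5 it was -0.15. In the 6 libraries with primer barcode 9 the log2 fold change of Ifi27l2a was -0.18, with an unadjusted p of 0.215 in the same edgeR test.

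Bst2 encodes tetherin, which holds budding virus at the cell surface (chromosome 8, 71534255 to 71537456). It had 201, 204, 169, 237 and 175 CPM in untreated mice 1 to 5, and between 128 and 196 CPM with a median of 162 in anti-LAG-3 mice. The groups overlapped, with the lowest values in anti-LAG-3 mice 10 and 11. For Bst2 the log2 fold change was -0.24 ± 0.12 (standard error), with an unadjusted p of 0.0522 in the same edgeR test, in all libraries and -0.10 with primer barcode 9 alone. Eif2ak2, the kinase PKR that halts translation on sensing viral RNA, was outside the rule for named genes and was looked at after its values were seen, as the gene with the lowest log2 fold change of the list (-0.44 ± 0.23, standard error). It had between 27.1 and 70.7 CPM in untreated mice and between 19.3 and 38.2 CPM in anti-LAG-3 mice.

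Isg15, Mx1 and Rtp4 differed between mice more than between groups, and were singled out for that after their values were seen. Isg15, a ubiquitin-like protein that is joined to other proteins, had 102, 144, 105, 180.5 and 141 CPM in untreated mice 1 to 5, and between 67.2 and 179 CPM with a median of 105 in anti-LAG-3 mice. Mx1, a dynamin-like GTPase that traps viral particles, had between 23.7 and 39 CPM in untreated mice, whereas in anti-LAG-3 mice it ranged from 6.42 CPM, which is 2 reads, in mouse 10 to 67.3 CPM in mouse 9. Rtp4 likewise had between 31.2 and 46.3 CPM in untreated mice, and 14.4 CPM in anti-LAG-3 mouse 11 against 83.8 CPM in mouse 9. The log2 fold changes of the group means were small beside this range, at -0.08 for Isg15, -0.06 for Mx1 and 0.07 for Rtp4.

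The other effectors tested were Ifit1, Ifit2, Ifit3, Isg20, Samhd1, Xaf1 and Ifi35, with log2 fold changes between -0.25 for Ifit3 and 0.07 for Xaf1. Ifit3 is uncertain, because 51.2% of the 50-base stretches of its transcripts also occur in its neighbour Ifit3b. Oasl2, Rsad2 and Ifi44 did not pass the filter on low counts. Oasl2 had 58 reads in all libraries together, Rsad2, the antiviral enzyme viperin, had 117, and Ifi44 had 14, with 0 reads in 6 of the 11 libraries.

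Of the 4 transcription factors, 3 had a log2 fold change below 0 and 1 above 0. Irf9, the DNA-binding subunit of the complex that reads the ISRE, had 74.2, 59.5, 63.6, 51.2 and 113 CPM in untreated mice 1 to 5, and between 48.2 and 81.4 CPM with a median of 66.0 in anti-LAG-3 mice. Its groups overlapped except for untreated mouse 5, which stood above all others. Its log2 fold change was -0.12 ± 0.17 (standard error), and 0.06 without that mouse. Irf7, which amplifies type I interferon production, had 56.2, 47.0, 44.9, 48.8 and 34.0 CPM in untreated mice, and between 28.8 and 61.4 CPM with a median of 40.6 in anti-LAG-3 mice. For Irf7 the log2 fold change was -0.12 ± 0.19 (standard error), and 0.02 with primer barcode 9 alone.

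Irf1, a factor that interferon-γ induces early and whose GAS core is printed above, had 254, 197, 286, 268 and 286 CPM in untreated mice 1 to 5 (chromosome 11, 53770014 to 53778374). In anti-LAG-3 mice it had between 241 and 310.0 CPM, apart from mouse 10 with 141 CPM, which stood below all other mice. Over all mice the log2 fold change of Irf1 was -0.04 ± 0.13 (standard error), and it was 0.05 without anti-LAG-3 mouse 10. Stat2, the remaining factor, had a log2 fold change of 0.04.

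All 3 sensors of nucleic acids had a log2 fold change below 0, with a median of -0.16. Zbp1, which senses nucleic acids in the Z form and can start cell death, had 100.8, 128, 121, 107 and 114 CPM in untreated mice 1 to 5, and between 48.2 and 142 CPM with a median of 91.1 in anti-LAG-3 mice. The untreated mice lay close together, while anti-LAG-3 mice 8, 10 and 11, all with primer barcode 8, lay below all of them. Its log2 fold change was -0.16 ± 0.17 (standard error) in all libraries and 0.14 with primer barcode 9 alone. Ifih1, which encodes the RNA sensor MDA5, had 28.9, 47.0, 26.3, 46.3 and 41.1 CPM in untreated mice, and between 16.8 and 51.7 CPM with a median of 23.9 in anti-LAG-3 mice, with overlapping groups. For Ifih1 the log2 fold change was -0.21 ± 0.25 (standard error), and for Ddx58, which encodes the RNA sensor RIG-I, it was -0.07 ± 0.24.

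The interferon-inducible GTPases gather on membranes around intracellular pathogens. Of the 7 tested, 4 had a log2 fold change below 0 and 3 above 0. Gbp7, a guanylate-binding protein (chromosome 3, 142530342 to 142550149), had 64.0, 78.3, 61.9, 107 and 85.8 CPM in untreated mice 1 to 5, and between 50.4 and 66.1 CPM with a median of 55.5 in anti-LAG-3 mice. Untreated mice 2, 4 and 5 stood above all 6 anti-LAG-3 mice, and untreated mice 1 and 3 lay at the upper end of their range. Its log2 fold change was -0.38 ± 0.16 (standard error), with an unadjusted p of 0.0237, the lowest of the list, and an adjusted p of 1.0 (edgeR). Within primer barcode 9 the log2 fold change of Gbp7 was -0.17 with an unadjusted p of 0.335 in the same edgeR test. The unadjusted p of Gbp7 was under 0.05 in 16 of 20 alternatives, and with a library left out it ran from 0.00834 without untreated mouse 3 (log2 fold change -0.48) to 0.0983 without untreated mouse 4 (-0.27) in the same edgeR test. Gbp7 shares 12.7% of its 50-base stretches with other transcripts, among them those of Gbp3.

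Gbp2, another guanylate-binding protein, had 61.7, 65.7, 51.7, 65.8 and 76.8 CPM in untreated mice 1 to 5, and between 40.8 and 73.2 CPM with a median of 51.5 in anti-LAG-3 mice. The groups overlapped, with anti-LAG-3 mice 7, 10 and 11 below all untreated mice, and the log2 fold change was -0.19 ± 0.17 (standard error). Ifi47, a GTPase of the immunity-related family, had 134, 116, 152, 185 and 172 CPM in untreated mice, and between 130.4 and 163 CPM with a median of 140.4 in anti-LAG-3 mice. All anti-LAG-3 mice lay within the range of the untreated mice for Ifi47, and its log2 fold change was -0.09 ± 0.12 (standard error). Log2 fold changes of the rest were 0.16 for Irgm1, 0.08 for Igtp, 0.06 for Gbp3 and -0.11 for Irgm2, and the counts of Igtp and Irgm2 are uncertain because the genes overlap on the same strand.

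Among the regulators and the ubiquitin or ADP-ribose enzymes, 5 of 6 had a log2 fold change below 0. Trim30a, a member of the TRIM family of ubiquitin ligases, had 96.1, 84.5, 63.6, 163 and 109 CPM in untreated mice 1 to 5, and between 51.4 and 93.1 CPM with a median of 70.9 in anti-LAG-3 mice. Untreated mouse 4 was the highest of the 11 mice, and anti-LAG-3 mice 10 and 11 were the lowest. For Trim30a the log2 fold change was -0.37 ± 0.18 (standard error), with an unadjusted p of 0.0547 in the same edgeR test, in all libraries and -0.04 with primer barcode 9 alone. It was -0.56 without untreated mouse 3 and -0.19 without untreated mouse 4. Dtx3l, a ubiquitin ligase that works with Parp9, had 53.9, 68.9, 40.7, 58.5 and 30.4 CPM in untreated mice, and between 28.8 and 47.0 CPM with a median of 41.4 in anti-LAG-3 mice. Its groups overlapped, and its log2 fold change was -0.23 ± 0.19 (standard error) in all libraries and 0.01 with primer barcode 9 alone.

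Sp100, a component of nuclear bodies, had 262, 228, 235, 173 and 250.2 CPM in untreated mice 1 to 5, and between 204 and 284 CPM with a median of 213 in anti-LAG-3 mice. Means of Sp100 were alike, at 229.7 ± 34.2 CPM over 5 untreated mice (SD) and 229.7 ± 33.9 CPM over 6 anti-LAG-3 mice (SD), and its log2 fold change of 0.00 turned sign with the choice of scaling or library. Log2 fold changes were -0.12 for Usp18, the protease that removes ISG15, -0.10 for Parp14 and -0.06 for Parp9. Parp9 and Dtx3l overlap on opposite strands, and whether the counting used strand is not given in the sources used here.

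The Schlafen genes hold regulators of T cell quiescence and growth. Slfn2, whose loss breaks the quiescence of T cells, had 137, 222, 198, 241 and 200.2 CPM in untreated mice 1 to 5, and between 148 and 202 CPM with a median of 166 in anti-LAG-3 mice. The groups overlapped, and untreated mouse 1 was the lowest of the 11 mice for Slfn2. Its log2 fold change was -0.22 ± 0.13 (standard error), with an unadjusted p of 0.0898 in the same edgeR test. Without untreated mouse 1 the log2 fold change was -0.36, with an unadjusted p of 0.00458 (edgeR). Without untreated mouse 4 it was -0.15, with an unadjusted p of 0.256 (edgeR). The unadjusted p of Slfn2 was under 0.05 in 3 of 20 alternatives. Slfn5 had 69.5, 75.1, 67.8, 85.4 and 55.4 CPM in untreated mice, and between 57.6 and 80.9 CPM with a median of 68.7 in anti-LAG-3 mice. For Slfn5 the log2 fold change was -0.04 ± 0.15 (standard error), and 0.02 without untreated mouse 4 or 0.01 without anti-LAG-3 mouse 6, while that of Slfn8 was 0.05.

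**Figure D3:**
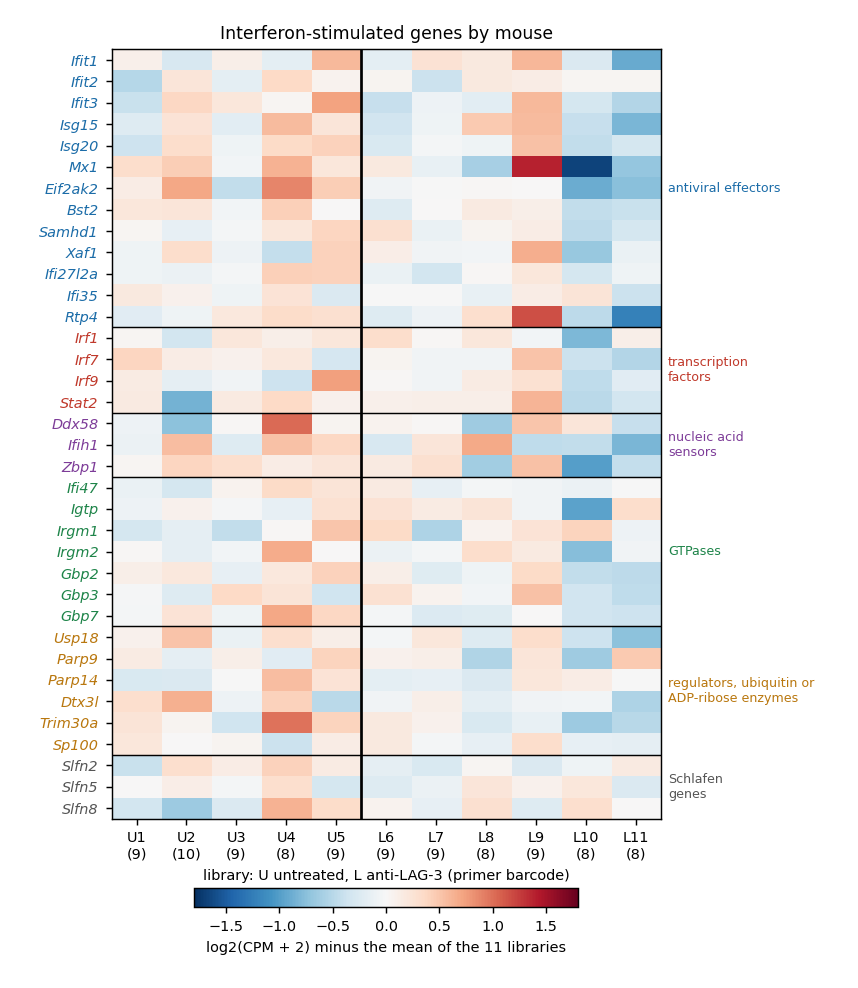
Each row is an interferon-stimulated gene and each column a mouse, with untreated mice (U1 to U5) left and anti-LAG-3 mice (L6 to L11) right of the black line and the primer barcode in brackets. Color gives log2(CPM + 2) minus the gene's mean over the 11 libraries, and columns U4 and L9 are mostly red and L10 and L11 mostly blue, except among the Schlafen genes, whose mean lay below 0 in L9 (-0.14) and above 0 in L10 (0.14).

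A few mice held the highest or lowest values of many genes. Untreated mouse 4 had the highest CPM of the 11 mice in 15 of the 36 genes (41.7%), against 12% of all genes tested, and anti-LAG-3 mouse 9 in 10 of the 36 (27.8%, against 7.14%). Anti-LAG-3 mouse 10 had the lowest CPM in 13 of the 36 genes (36.1%, against 15.9%) and anti-LAG-3 mouse 11 in 12 (33.3%, against 11.4%). Anti-LAG-3 mouse 9 lay above the median of its group in 29 of the 36 genes, against 49.9% of all genes tested, and anti-LAG-3 mouse 11 below it in 29, against 51.6%.

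A score per mouse, the mean over the 39 genes of log2 CPM centred on each gene's mean, was -0.03, -0.03, -0.06, 0.32 and 0.24 in untreated mice 1 to 5, and -0.01, -0.03, 0.00, 0.30, -0.38 and -0.33 in anti-LAG-3 mice 6 to 11. Group means were 0.09 ± 0.18 (SD over 5 untreated mice) and -0.07 ± 0.25 (SD over 6 anti-LAG-3 mice), and their difference was -0.16. Over the 36 genes tested alone the difference was -0.18, against SDs of 0.15 in untreated and 0.23 in anti-LAG-3 mice. With primer barcode 9 alone (6 libraries) the difference was 0.04, and with primer barcode 8 alone (4 libraries) it was -0.56, where a single untreated mouse, mouse 4, stands against 3 anti-LAG-3 mice. Untreated mouse 4 and anti-LAG-3 mice 10 and 11, which hold the highest score and the lowest scores, were all shallow libraries with primer barcode 8. The other shallow libraries, anti-LAG-3 mouse 8 with primer barcode 8 and untreated mouse 2 with primer barcode 10, scored 0.00 and -0.03. Untreated mice 4 and 5, with the 2 highest scores of their group, shared an index that no other library had, although mouse 5 had primer barcode 9. Only the index of untreated mice 2 and 3 and anti-LAG-3 mouse 10 was used in both groups, and within it the scores were -0.03 and -0.06 against -0.38. Anti-LAG-3 mouse 9, with the highest score of its group, had primer barcode 9 and 845886 counts.

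**Figure D4:**
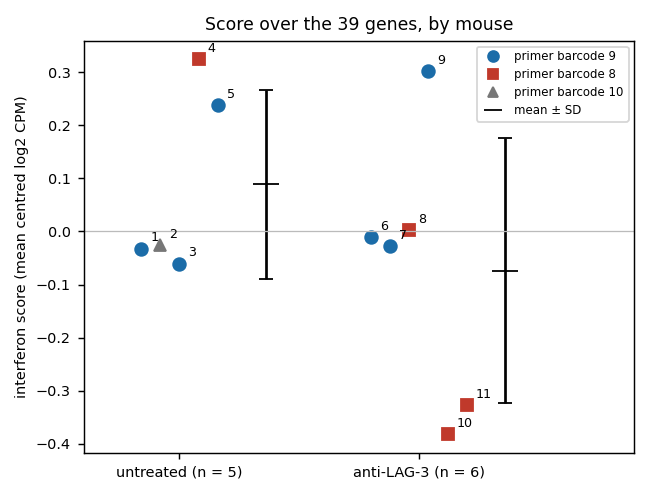
Interferon score of each mouse, the mean of centred log2 CPM over the 39 genes, by group and primer barcode, with library numbers beside the points and the mean ± SD of each group as a bar. The groups overlap, with mice 4, 5 and 9 above 0.2 and mice 10 and 11 below -0.3.

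Markers of other cells were set beside the score. The 9 myeloid markers summed to between 45.9 and 81.9 CPM of total counts in untreated mice and between 46.1 and 163 CPM in anti-LAG-3 mice, with the highest sum in mouse 10, which had the lowest interferon score. The 6 B cell markers present summed to at most 12.8 CPM, again in mouse 10, and the 6 dendritic cell markers to between 9.57 and 31.8 CPM, with the lowest sum in mouse 10. The 3 markers of CD4 and regulatory T cells summed to at most 19.1 CPM, also in mouse 10. The 7 markers of tumor and stroma summed to between 137 and 214 CPM, again highest in mouse 10. Most of that sum was Pecam1 with 1534 reads, while Sparc had 44 reads and each other marker 10 or fewer. The 3 NK cell markers summed to between 9.45 and 33.8 CPM, most of it Eomes with 166 reads, while Ncr1 and Klrb1c had 1 and 13. The sums of these lists thus follow Pecam1 and Eomes rather than the lists as a whole. Clec9a and Krt19 were at 0 in every library. The 4 proliferation markers ranged from 163 CPM in anti-LAG-3 mouse 10 to 349.7 CPM in untreated mouse 2. The part of these values in the differences between mice was not tested.

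The spread between mice of a group was described by the quasi-dispersion, the residual variation of a gene relative to that of genes at the same level, for which a value over 1 is more than the trend of all genes. Of the 36 genes, 21 (58.3%) had a quasi-dispersion over 1, against 39.1% of all genes tested, and the median was 1.13 against 0.861. Of the antiviral effectors 10 of 13 were over 1, with a median of 1.64, and of the sensors all 3, with a median of 1.79. Isg15 lay at 3.83, above 98.9% of all genes tested, Mx1 at 3.77, Rtp4 at 3.32, Zbp1 at 2.71 and Trim30a at 2.57. At the other end were Slfn5 at 0.544 and Irgm2 at 0.430.

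**Figure D5:**
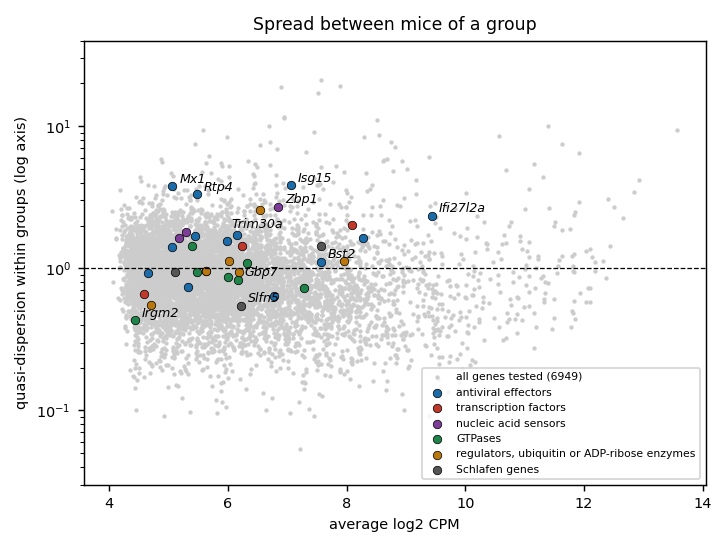
Quasi-dispersion within groups (log axis) against average log2 CPM for all 6949 genes tested (gray) and for the 36 interferon-stimulated genes (colored by role). The dashed line marks 1, and 21 of the 36 colored points lie above it, with Isg15, Mx1 and Rtp4 highest.

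Within the groups, the values of the genes were correlated from mouse to mouse. After the group means were taken out, the median Pearson correlation over the 630 pairs of the 36 genes was 0.29 across the 11 libraries, against 0.00 over all pairs of genes tested, and 28.1% of pairs were above 0.5, against 8.65%. These are descriptions without a test, since the genes of a pair share libraries and depth. The median was 0.50 among the 13 antiviral effectors and 0.43 among the 7 GTPases, but 0.03 among the 6 regulators and 0.00 among the 3 sensors. Across the 6 libraries with primer barcode 9 the median over the 36 genes was 0.36, against 0.00 for all genes tested. With so few libraries high correlations are more frequent, and 38.6% of pairs were above 0.5 there, against 20.0% for all genes tested. The share of pairs of the 36 genes above 0 was 68.4% there, against 78.9% across the 11 libraries. The pairs most alike were Ifit3 and Isg20 (0.88), Isg15 and Rtp4 (0.87) and Mx1 and Zbp1 (0.87).

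The genes were also sorted by the core that their promoter holds. The 17 genes tested with an ISRE core had a median log2 fold change of -0.08, the 5 with a GAS core and no ISRE core -0.05, and the 7 with neither core -0.12. Of these, 12, 4 and 5 lay below 0. Their median quasi-dispersions were 1.09, 1.56 and 1.13.

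The genes upstream in the pathway were measured from a list of 49 ligands, receptors, kinases, inhibitors, regulatory factors and sensors. Of these symbols, 41 were matched in the count table, among them 4 of the 10 ligands, and the others were not analysed here. Of the 41, 29 were tested, 0 had an adjusted p under 0.05, and 0 had an unadjusted p under 0.05, against 3.71% of all genes tested, with 14 log2 fold changes below 0 (48.3%, against 48.9% of all genes tested) and 15 above. Among the ligands, Ifng, which encodes the interferon-γ that CD8 T cells secrete, had 136, 159.7, 120.4, 171 and 141 CPM in untreated mice 1 to 5, and between 120.0 and 171 CPM with a median of 145 in anti-LAG-3 mice. For Ifng the log2 fold change was 0.04 ± 0.12 (standard error), and -0.04 without untreated mouse 3 or -0.02 without anti-LAG-3 mouse 9. Ifna1 had 1 read in all libraries together, and Ifna2 and Ifnl3 had 0, below the 3 counts that serve as the floor in each library.

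Of the receptors, Ifnar1, Ifnar2, Ifngr1 and Il10rb, a chain shared by the receptors for IL-10 and interferon-λ, were tested and had log2 fold changes of 0.04, 0.16, -0.02 and -0.15. Ifngr2, the signaling chain of the interferon-γ receptor, had 39 reads in all libraries together and did not pass the filter, whereas Ifngr1, its ligand-binding chain, had 5127. Ifnlr1, the receptor chain for interferon-λ, had 0 reads.

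Socs1, which inhibits JAK kinases and is itself induced by interferon, had 81.2, 113, 84.8, 80.5 and 73.3 CPM in untreated mice 1 to 5, and between 61.0 and 103 CPM with a median of 84.7 in anti-LAG-3 mice. For Socs1 the log2 fold change was 0.02 ± 0.15 (standard error) and turned sign in 5 of the 11 fits that leave out a library, as low as -0.05. Of the 8 inhibitors, 7 had a log2 fold change above 0 and 1 below 0, up to 0.23 for Ptpn11.

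A further 67 genes known to be induced by interferon were listed, of which 66 were matched and 42 tested, 22 with a log2 fold change below 0 and 20 above and a median of -0.01. None of the 42 had an adjusted p under 0.05 (edgeR), and 1 (2.38%) had an unadjusted p under 0.05, against 3.71% of all genes tested. That gene was Ifitm1, which encodes a membrane protein that blocks viral fusion. It had 10.9, 18.8, 17.0, 36.6 and 30.4 CPM in untreated mice 1 to 5, and between 19.2 and 49.5 CPM with a median of 30.7 in anti-LAG-3 mice. All anti-LAG-3 mice stood above untreated mice 1 to 3, and the groups overlapped through untreated mice 4 and 5. For Ifitm1 the log2 fold change was 0.66 ± 0.28 (standard error), with an unadjusted p of 0.0269 and an adjusted p of 1.0 (edgeR), and for Ifitm2 and Ifitm3 of the same family it was 0.30 ± 0.30 and -0.37 ± 0.26. The unadjusted p of Ifitm1 was under 0.05 in 15 of 20 alternatives, and with a library left out it ran from 0.00615 without untreated mouse 4 (log2 fold change 0.86) to 0.175 without untreated mouse 1 (0.40) in the same edgeR test.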

How the data were processed

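Precursor exhausted CD8 T cells were sorted from LLC tumors of 5 untreated and 6 anti-LAG-3 mice, and bulk RNA-seq was run on a library per mouse. Groups and library numbers 1 to 11 were taken from the labels. The authors used Cutadapt for trimming and Bowtie2 for mapping to GRCm38 reference RNA, and deposited raw counts per gene symbol. The submitters' processing notes name cutadapt 4.1 and Bowtie2 2.4.5. The handling of multi-mapped reads and of strand is not given in the sources used here.

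Genes were kept by filterByExpr (17.7 CPM in 5 or more libraries and 15 counts in all), and the counts were normalized by TMM in edgeR 4.0.16 (R 4.3.3). Groups were compared by the quasi-likelihood test of edgeR with p-values adjusted by Benjamini-Hochberg and a threshold of 0.05, with common, trended and tagwise dispersions as in the study's methods. Standard errors follow from the log2 fold change and the F statistic of this test, and 95% intervals use the t distribution of that test. CPM use total counts times TMM factors, and the score uses log2 CPM with a prior count of 2. DESeq2 1.42.0, limma 3.58.1 (voom), the likelihood ratio test, other scalings, no filter, the primer barcode and leaving out each library were alternatives. On simulated counts with 200 changed genes, 48.5% of 1.5-fold changes among 6779 genes and 90% of 2-fold changes among 6814 genes were recovered. There were 8 and 7 false calls. Every simulated gene varied at the trend of all genes, so these shares need not hold for genes that vary more, as 21 of the 36 did. Across the 55 pairs of libraries, chi-square per degree of freedom was 1.43 or more, so no library was a copy of another.

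GENCODE M21 (GRCm38), which held all 39 symbols, gave positions and shared 50-base stretches. Promoters come from RefSeq (GRCm38.p6), the first entry per gene. The genes named are, per role, the 2 with the largest ratio of log2 fold change to standard error and the 1 with the most reads, any with p under 0.05 or no overlap, and Ifng and Socs1, while a gene that the same rule fixed is not reported here. The members and lists were chosen with earlier results of these data known.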

Additional observations from a re-analysis of the deposited data

Results flagged for a closer look

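Irf1 in anti-LAG-3 mouse 10 stood apart from the other anti-LAG-3 mice, with a log2 CPM of 7.17, which is 141 CPM, against 241 to 310.0 CPM in the other 5. Its gap to the nearest mouse was 0.677 of the range of the group, past Dixon's 95% limit for 6 samples. In the same library the interferon score was the lowest of all. Of 40 sets of values screened, 1 stood apart, where chance alone gives about 2 (1 in 20).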

How the results depend on the processing

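The count of the 39 genes with an adjusted p under 0.05 stayed at 0 in all 20 alternatives, as did that of the 107 other pathway genes matched, and the count of genes without overlap stayed at 0 with total counts. Over all genes the count was 0 except with no filter on low counts, where 7 of 24024 genes passed, none of them on the interferon lists. Leaving out each library gave a median log2 fold change of the list between -0.19 and -0.04 and a difference in score between -0.24 and -0.10. Divided by each gene's SD, the score differed by -0.43 SD units, a change of unit. With primer barcode 9 alone, the median was 0.02 and the score difference 0.04, and the log2 fold change turned to 0.022 for Irf7, 0.14 for Zbp1 and 0.0081 for Dtx3l. Of the 18 genes followed singly, leaving out each library turned the sign of 6 near 0, with log2 fold changes from -0.20 to 0.058 for Irf9, from -0.12 to 0.048 for Irf1, from -0.071 to 0.063 for Sp100, from -0.11 to 0.017 for Slfn5, from -0.041 to 0.097 for Ifng and from -0.054 to 0.087 for Socs1. Sp100 also turned to -0.0016 with DESeq2, -0.0032 with limma-voom, -0.0017 with RLE size factors and -0.0010 with total counts. The fit with estimateDisp, chosen after seeing the data, gave 0 calls and 259 genes at an unadjusted p under 0.05. The cause of these turns was not tested. No paired analysis was possible because the groups share no replicate number. Depth limits the low genes, and the 3 untested genes had between 14 and 117 reads in all.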
